A study of Mus musculus with 12 samples.

Results

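The respiratory chain subunits described here are the proteins that build the 5 complexes of oxidative phosphorylation in mitochondria. They were chosen by gene symbol among the protein-coding genes of GENCODE M21, without Ndufa4l2 and without assembly factors. The rule found 97 genes of the 35975 in the files, 84 encoded in the nucleus and 13 in the mitochondrial genome. Complex I has 42 of them (35 nuclear, 7 mitochondrial), complex II 4 (all nuclear), complex III 9 (8 and 1), complex IV 22 (19 and 3) and complex V 20 (18 and 2). The symbol rule leaves out a few subunits with other names, such as Cyc1 and Ndufab1, and it counts Ndufa4 with complex IV, where its protein is found. After a filter on low counts 93 genes were tested, 80 nuclear and 13 mitochondrial. The 4 that did not pass were Cox6a2, Cox8b and Cox8c, isoforms known from muscle and testis, with 2, 3 and 13 counts over all 12 libraries, and an additional gene model named Atp5o (ENSMUSG00000116933) with 3 counts.

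Complexes I to IV pass electrons from NADH and succinate to oxygen, and complexes I, III and IV pump protons across the inner membrane, a gradient that complex V, the ATP synthase, uses to make ATP. The mitochondrial genome encodes core subunits of complexes I, III, IV and V and none of complex II, and its genes are transcribed as long polycistronic precursors from both strands, which are then cut into single mRNAs. Nuclear subunits are transcribed by RNA polymerase II, translated in the cytosol and imported, so that most complexes are assembled from products of both genomes. Early germ cells and pluripotent cells are known to differ in how far they rely on glycolysis and on respiration.

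The libraries are bulk RNA-seq of PGCLCs, mouse cells that resemble primordial germ cells, made in culture from E14TG2a, a mouse embryonic stem cell line grown in 2i medium with LIF and vitamin C. One group was wild type (WT) and 3 groups carried the label TKO, known from the study as a knockout of Dnmt1, Dnmt3a and Dnmt3b; the labels name no separate clones, so other differences between the lines cannot be told apart from the knockout. Cells were primed to epiblast-like cells (EpiLCs) for 40 h in WT_40h and for 40, 48 and 96 h in TKO_40h, TKO_48h and TKO_96h. All 4 groups were then kept for 4 days in aggregates with BMP4, BMP8, SCF, EGF and LIF, and each had 3 biological replicates. The labels mention dissociation for flow cytometry and do not say whether the RNA came from sorted cells.

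Libraries held 6570180 to 9114128 estimated counts. Dnmt1 lay at 426 to 450 CPM (counts relative to the TMM-normalised library size) in WT_40h and at 64.9 to 152 CPM in the TKO libraries, Dnmt3a at 358 to 436 and 25.4 to 73.1 CPM, and Dnmt3b at 157 to 215 and 13.4 to 55.4 CPM, so the labels and these genes go together. All 12 germ cell markers examined were in the files, with a summed level of 1182 to 1672 CPM, most of it from the pluripotency genes Pou5f1, Sox2 and Nanog, while the germ cell markers Nanos3 and Fut4 averaged only 1.97 and 1.47 CPM. The sum was 1226 to 1288 CPM in TKO_40h and 1439 to 1672 CPM in TKO_96h, without overlap, and its part in the results was not tested. TKO_96h replicate 1 and TKO_48h replicate 1 stood apart from their groups, and results that rest on them are given with and without them. For the summed nuclear subunits TKO_48h replicate 2 stood apart as well, at 5181 CPM beside 7206 and 6331 CPM in replicates 1 and 3. The replicates are not stated to come from separate stem cell lines, so p-values measure the spread between these cultures. In bulk RNA, fewer cells of a type and less RNA per cell cannot be told apart.

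Per transcript length, mRNAs of the mitochondrial genome were far more abundant than those of nuclear subunits. The median TPM (a level per transcript length and depth, as deposited) was 852 over the 13 mitochondrial genes and 58.3 over the 80 nuclear genes tested, as means over 12 libraries, and these medians ranged from 557 to 1430 and from 45.4 to 88.6 between libraries. The most abundant mitochondrial mRNA by mean TPM was mt-Atp8 (2693), a small subunit of the synthase, ahead of mt-Co1 (1752), the catalytic core of complex IV, and mt-Atp6 (1370), the proton channel of the synthase. The ranges of these 3 genes between libraries overlapped (1567 to 4879, 1336 to 2097 and 874 to 2288 TPM), so their order is not firm. mt-Nd3, a core subunit of complex I, was lowest with 109 TPM. mt-Atp8 (chrM:7766-7969) overlaps mt-Atp6 (chrM:7927-8607), and how reads in the overlap were divided was not tested.

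Among nuclear subunits the highest level per length was that of Atp5b, the catalytic beta subunit of the synthase, with 525 TPM (479 to 576). Complex V had a median of 86.5 TPM over its 17 nuclear genes tested, complex III 83.7 over 8, complex IV 65.8 over 16, complex I 46.6 over 35 and complex II 29.3 over 4, as means over libraries. The ranges of these medians between libraries overlapped for complexes III, IV and V, and that of complex II (22.4 to 42.6) lay below that of complex III (56.6 to 177). That of complex I (33.3 to 71.7) overlapped the range of each other complex. The most abundant nuclear genes of the other complexes were Cox6c (377 TPM) and Cox4i1 (246), both of complex IV, Uqcrb (154) and Uqcrq (150) of complex III, Ndufc1 (107) and Ndufa6 (97.7) of complex I, and Sdha (80.5) and Sdhb (30.6) of complex II. Next to Atp5b, complex V had Atp5mpl, a small synthase-associated protein, with 235 TPM. The lowest tested genes were Atp5s (2.02 TPM), Cox7b2 (2.75) and Cox4i2 (3.82), the latter pair being tissue-restricted or inducible isoforms of complex IV.

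The level of mt-Nd3 depends on a nuclear copy of the gene. The nuclear genome of the mouse holds a stretch of mitochondrial DNA on chromosome 1, annotated as unprocessed pseudogenes, and the annotation lists near-identical partners there for 7 of the 13 mitochondrial genes. The sequences of mt-Nd3 (GRCm38 chrM:9459-9806, plus strand) and of its copy Gm28438 (chr1:24612775-24613119, minus strand) were compared because most reads of the pair were assigned to the copy. They differ at 1 of 345 bases, T3C, counted from 1 at the 5′ end of the gene with the base of mt-Nd3 written before the position. The 61 bases around it are shown 5′ to 3′ with the differing base in capitals (chrM:9459-9519 and chr1:24613059-24613119).
mt-Nd3: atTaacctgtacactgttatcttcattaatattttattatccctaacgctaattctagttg
Gm28438: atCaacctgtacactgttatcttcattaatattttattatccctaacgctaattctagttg
The gene is 348 bases long and the copy 345, and of the 318 words of 31 bases in mt-Nd3 the copy shares 312. A read within these shared words fits both. Gm28438 received between 67.3% and 83% of the estimated counts of the pair in the 12 libraries, for example 809 counts against 393 for mt-Nd3 in WT_40h replicate 1 and 1340 against 405 in TKO_96h replicate 1. The division of such reads between the genes was estimated by the counting program, so the level of mt-Nd3 is uncertain. For mt-Co2 the share of the copy ran from 0.418% to 38.3% between libraries, for mt-Co3 from 0.078% to 18% and for mt-Atp6 from 0.0032% to 17.7%, while for mt-Co1 it kept to 5.31% to 7.98%. The copies of mt-Nd4 and mt-Nd4l held under 0.1% of the counts of their pairs. Of the nuclear members 17 also have a partner, here called a copy, that shares at least 50% of its words of 31 bases with the member. These shares ran from 52.6% to 100%, so not all are near-identical. For Ndufb4 (214.5 counts per library on average) and Ndufs5 (114.7) the copies Ndufb4c (362.9) and BC002163 (178) held more counts than the gene.

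The comparison of TKO_40h with WT_40h asks how the genotypes differ at the same priming time, and no subunit was called. Of 93 members 0 passed an adjusted p below 0.05 by edgeR's quasi-likelihood test, where 3.1% of all 16178 genes did (1.62% higher, 1.48% lower), and DESeq2 also called 0. At an unadjusted p below 0.05 there were 5 members, 2 higher and 3 lower, and the smallest adjusted p was 0.13, that of Cox6b2, the testis isoform of a complex IV subunit. Cox6b2 lay at 17.9, 24.8 and 17.8 CPM in WT_40h and at 14, 12 and 13.3 CPM in TKO_40h. The groups did not overlap, but the difference of -0.63 ± 0.21 (log2 fold change ± SE) did not pass.

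The median log2 fold change between the genotypes was -0.17 over the 13 mitochondrial genes and 0.03 over the 80 nuclear genes, with -0.00 over all genes tested. The mitochondrial median was -0.08 with the copies added, -0.08 without WT_40h replicate 1 and -0.07 without TKO_40h replicate 2. The copies held 3.95% ± 0.555 of the counts of mitochondrial genes and copies in WT_40h and 5.75% ± 0.67 in TKO_40h (mean ± SD, n = 3). mt-Co1 was at 4339, 4521 and 4414 CPM in WT_40h and 3869, 3528 and 4075 CPM in TKO_40h. All 3 TKO_40h libraries were below all 3 WT_40h libraries, yet the log2 fold change of -0.21 ± 0.11 had an adjusted p of 0.35. With TKO_48h replicate 1 and TKO_96h replicate 1 left out of the fit, mt-Co1 alone among the members was called lower (adjusted p = 0.048). Complex II had 0 of 4 genes called, with Sdha, the flavoprotein of succinate dehydrogenase, at 193, 184 and 209 CPM in WT_40h and 173, 171 and 152 CPM in TKO_40h (-0.24 ± 0.10, adjusted p = 0.26).

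TKO_48h and TKO_40h differ in priming time, 48 h against 40 h, within the same genotype. Of 93 members 4 were called: Cox8a rose, and mt-Cytb, mt-Nd5 and mt-Nd2 fell. Of all genes tested 5.49% were called, 2.57% higher and 2.92% lower. Of the members 1.1% were higher and 3.2% lower, shares below or near those of all genes. Cox8a, a small subunit of complex IV (GRCm38 chr19:7215153-7217616, minus strand), was at 58.9, 53.4 and 57.5 CPM in TKO_40h and 111, 80.6 and 87.4 CPM in TKO_48h. All TKO_48h libraries lay above all TKO_40h libraries, a log2 fold change of 0.71 ± 0.14 (adjusted p = 0.0066). This call was kept without any 1 of the 6 libraries and with an offset for effective length (adjusted p = 0.048).

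The mitochondrial genes were lower in TKO_48h for the most part, 11 of 13 with a negative log2 fold change and a median of -0.27, against 0.11 for the nuclear genes. Without TKO_48h replicate 1 the nuclear median was -0.04 and the mitochondrial one -0.22, and without TKO_48h replicate 2 they were 0.23 and -0.28. mt-Cytb, the cytochrome b of complex III, was at 1405, 1207 and 1423 CPM in TKO_40h and 1000, 811 and 1059 CPM in TKO_48h. The groups did not overlap (-0.49 ± 0.12, adjusted p = 0.023). mt-Nd5 and mt-Nd2, proton-pumping core subunits of complex I, fell by 0.36 ± 0.10 and 0.49 ± 0.14 on the log2 scale (adjusted p = 0.038 and 0.042). mt-Nd1 (-0.40 ± 0.13, adjusted p = 0.076) and mt-Nd6 (-0.40 ± 0.12, adjusted p = 0.056) did not pass, although their groups and those of mt-Nd4 did not overlap either. The genes of complex IV and V in the mitochondrial genome had differences that did not pass, 0.02 for mt-Co1 and for mt-Co2, -0.07 for mt-Co3, -0.09 for mt-Atp6 and -0.22 for mt-Atp8. With the copies added, mt-Co2, mt-Co3 and mt-Atp6 had -0.21, -0.16 and -0.22, and mt-Co1 had 0.03. For mt-Nd3 of complex I the difference was -0.08, and -0.19 with its copy. None of these passed, and a difference between the complexes was not tested.

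These 3 lower calls depended on single libraries and on the length setting. The number of members called was 2 without WT_40h replicate 2, 1 without TKO_40h replicate 1 or replicate 3, 2 without TKO_48h replicate 1 or replicate 3, and 8 without TKO_48h replicate 2 (6 higher, 2 lower). Over all genes the calls changed as well. They numbered 725 without WT_40h replicate 2, and 324 and 394 without TKO_40h replicate 1 and replicate 3. Without TKO_48h replicate 1, 2 and 3 they numbered 551, 1106 and 492, against 888 with all libraries. With an offset for effective length Cox8a was the only member called, while 203 genes were called in all against 888.

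The comparison of TKO_96h with TKO_40h sets the longest priming against the shortest within TKO, and the subunits of both genomes were higher in TKO_96h. Of 93 members 24 rose and 0 fell, where 4.94% of all genes tested were called higher and 7.2% lower. By genome, 8 of 13 mitochondrial genes (61.5%) and 16 of 80 nuclear genes (20%) rose, and the median log2 fold changes were 0.50 and 0.39, with 0.00 over all genes. By complex, 11 of 42 genes of complex I rose, 4 of 9 of complex III, 5 of 19 of complex IV and 4 of 19 of complex V. Complex II had 0 of 4 called with a median of 0.39, near the medians of the nuclear genes of the other complexes (0.34 to 0.52). That it had no call therefore does not show that it differed from them.

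In the mitochondrial genome mt-Cytb was at 1405, 1207 and 1423 CPM in TKO_40h and 2354, 1918 and 1695 CPM in TKO_96h. All TKO_96h libraries were above all TKO_40h libraries (0.56 ± 0.12, adjusted p = 0.0042). mt-Nd5 was at 1540, 1444 and 1540 against 1927, 2043 and 2076 CPM (0.42 ± 0.10, adjusted p = 0.0081). mt-Nd6, the only one of the 13 encoded on the minus strand (chrM:13552-14070), was at 332, 273 and 346 against 482, 472 and 411 CPM (0.52 ± 0.12, adjusted p = 0.0055). Unlike most members, mt-Nd5 was not highest in replicate 1 of TKO_96h. mt-Nd6 and mt-Nd5 overlap at their ends on opposite strands, and the strand setting of the counting is not given in the sources used here. The calls of mt-Cytb, mt-Nd5 and mt-Nd6 were kept without any 1 of the 6 libraries.

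mt-Nd4, mt-Atp6, mt-Atp8, mt-Nd3 and mt-Co3 also rose, by 0.50, 0.55, 0.58, 0.91 and 0.52 on the log2 scale (adjusted p = 0.0089, 0.014, 0.033, 0.025 and 0.045), each depending on at least 1 library. With the length offset all of these calls but that of mt-Nd4 ended (adjusted p from 0.057 to 0.13). With DESeq2 those of mt-Atp8 and mt-Co3 ended (adjusted p = 0.078 and 0.11). When the counts of the nuclear copies were added to their genes, mt-Nd3 stayed called (0.80, adjusted p = 0.0066), and the calls of mt-Atp6 (0.41, adjusted p = 0.055) and mt-Co3 (0.48, adjusted p = 0.067) ended. The remaining mitochondrial genes did not pass: mt-Nd1 at 0.23, mt-Nd2 at 0.23, mt-Nd4l at 0.18, mt-Co2 at 0.37 and mt-Co1 at 0.14 (adjusted p from 0.24 to 0.44). mt-Co1, the mitochondrial mRNA with most counts, was at 3869, 3528 and 4075 CPM in TKO_40h and 4812, 4114 and 3751 CPM in TKO_96h, with overlapping groups.

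**Figure D1:**
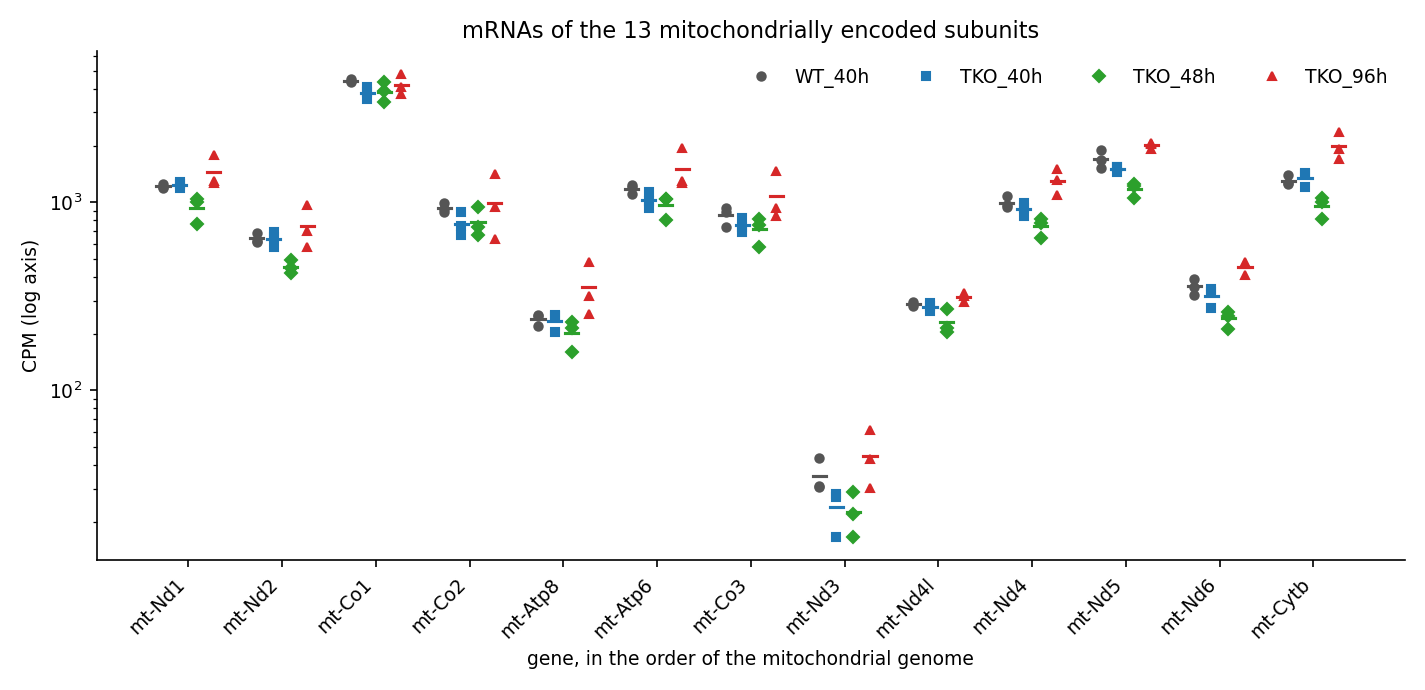
Levels of the 13 mitochondrially encoded mRNAs in CPM on a log axis, in the order of the mitochondrial genome, with 1 point per library, 3 libraries per group and short lines for group means. TKO_96h lies above TKO_48h without overlap in 11 genes, mt-Co1 and mt-Co2 being the exceptions. Of all 16178 genes tested, 2530 had TKO_96h above TKO_48h without overlap. The lowest of the 13 is mt-Nd3 at 16.6 to 61.1 CPM.

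Among the nuclear genes of complex I, Ndufa5 (chr6:24518666-24528013, minus strand), an accessory subunit of the matrix arm, was at 41.2, 40.7 and 38.4 CPM in TKO_40h and 116, 77.3 and 58.3 CPM in TKO_96h. All TKO_96h libraries lay above, a log2 fold change of 1.07 ± 0.19 (adjusted p = 0.00084). Ndufv1 (chr19:4007384-4012806, minus strand), which binds NADH and the flavin where electrons enter, was at 75.9, 80.9 and 85.3 against 127, 120 and 122 CPM. Its 3 values in TKO_96h were close together, with 123 ± 3.5 CPM (mean ± SD, n = 3), and all above TKO_40h (0.61 ± 0.13, adjusted p = 0.0047). Ndufb8, Ndufs5, Ndufa9 and Ndufs1 also rose (0.74, 0.77, 0.47 and 0.32, adjusted p = 0.015, 0.033, 0.036 and 0.047), and the call of Ndufs5 ended when its copy was added (0.55, adjusted p = 0.059). That of Ndufs1 ended when rare genes were kept in the fit (adjusted p = 0.1). Without TKO_96h replicate 1 the calls of Ndufb8, Ndufs5, Ndufa9 and Ndufs1 ended (adjusted p = 0.13, 0.12, 0.14 and 0.17). They also ended with the length offset.

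In complex III, Uqcrh (chr4:116066965-116075071, minus strand), the hinge protein that helps cytochrome c to bind, was at 48.7, 43.6 and 47.8 CPM in TKO_40h and 134, 83.7 and 70 CPM in TKO_96h. The groups did not overlap (1.04 ± 0.20, adjusted p = 0.0017). Uqcr10 and the core protein gene Uqcrc1 rose by 0.89 ± 0.23 and 0.53 ± 0.13 (adjusted p = 0.015 and 0.0095). Both of these calls ended without TKO_96h replicate 1. In complex IV the nuclear genes Cox5a, Cox5b, Cox7b and Cox7a2 rose, by 0.54, 0.55, 0.62 and 0.77 (adjusted p = 0.014, 0.016, 0.026 and 0.037). The calls of Cox5b, Cox7b and Cox7a2 ended without TKO_96h replicate 1 (adjusted p = 0.11, 0.23 and 0.31). With the length offset these calls and that of Cox5a ended. Cox4i1, the main form of the largest nuclear subunit, was at 234, 200 and 208 against 310, 246 and 233 CPM and did not pass (0.30 ± 0.13, adjusted p = 0.17).

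In complex V, Atp5g1 (chr11:96068852-96075670, minus strand), one of 3 genes for the same c subunit of the rotor ring, was at 49.8, 51.3 and 44.3 CPM in TKO_40h and 96.8, 63.6 and 76.6 CPM in TKO_96h. All TKO_96h libraries lay above (0.70 ± 0.16, adjusted p = 0.0052), and with the length offset the adjusted p was 0.067. Atp5mpl rose by 0.62 ± 0.18 (adjusted p = 0.026), a call that ended without TKO_96h replicate 1 (adjusted p = 0.21) and with the length offset (0.11). Atp5b, the most abundant nuclear subunit per length, was at 991, 961 and 956 against 1194, 993 and 996 CPM and did not pass (0.13 ± 0.11, adjusted p = 0.52).

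Of the complex II genes, Sdha was at 173, 171 and 152 CPM in TKO_40h and 198, 215 and 206 CPM in TKO_96h, without overlap, and just missed the threshold (0.32 ± 0.10, adjusted p = 0.053). Sdhb, the iron-sulfur subunit, and the membrane anchors Sdhd and Sdhc had 0.46 ± 0.16, 0.47 ± 0.19 and 0.05 ± 0.17 (adjusted p = 0.07, 0.12 and 0.89).

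**Figure D2:**
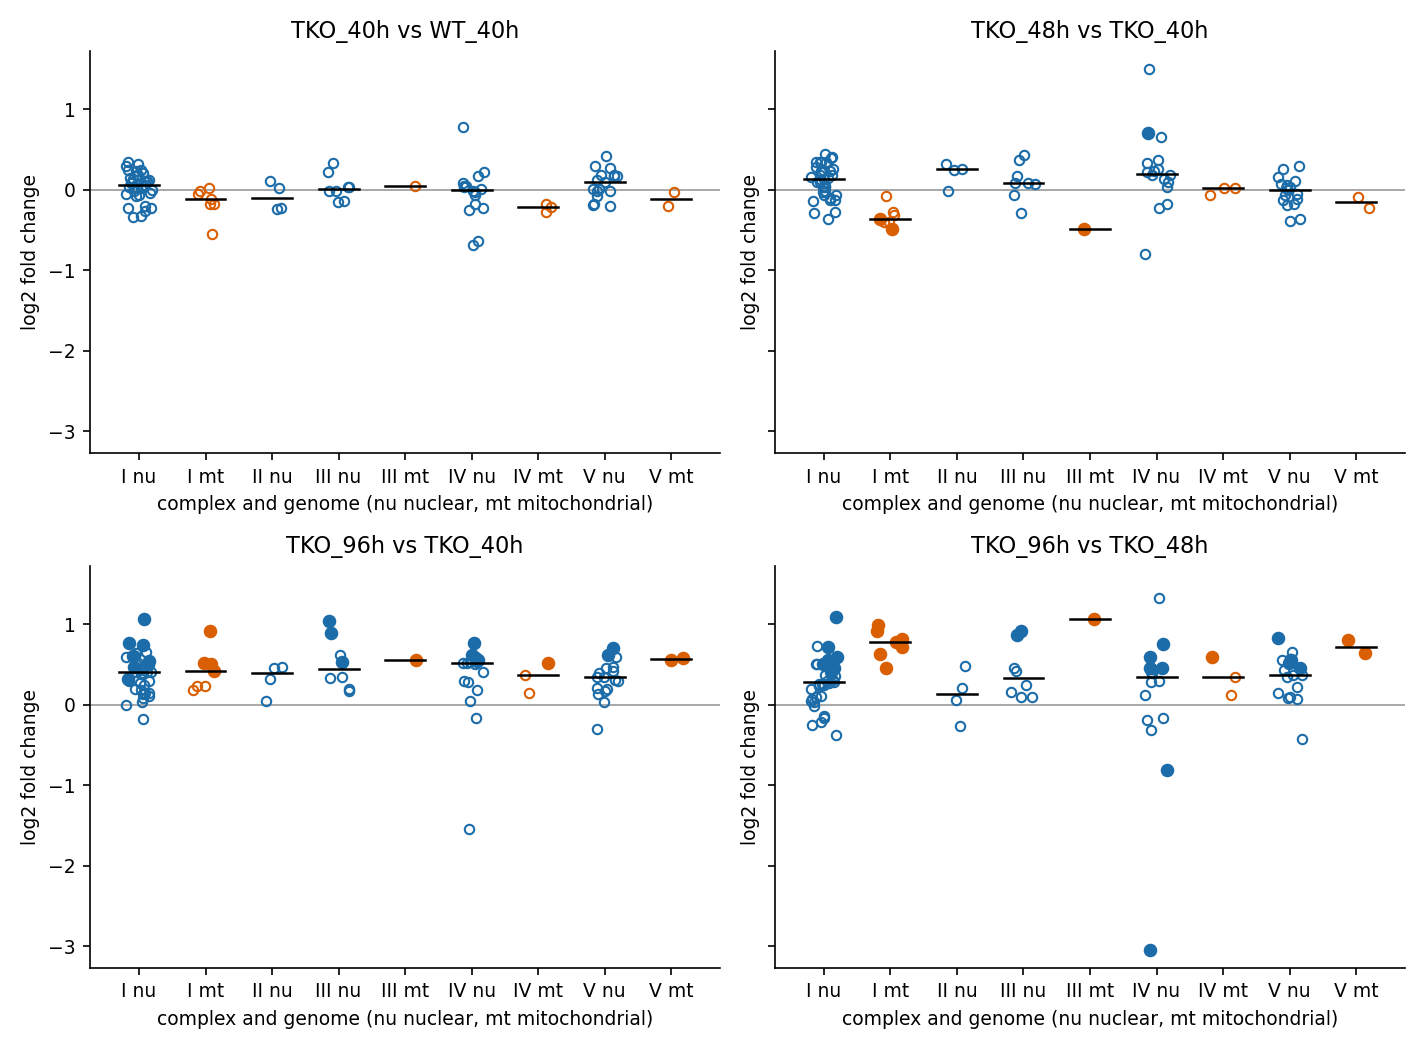
Log2 fold changes of the 93 tested members in the 4 comparisons, split by complex (I to V) and genome, with 1 circle per gene, filled circles for genes called at an adjusted p below 0.05 and black lines for medians. No circle is filled for TKO_40h vs WT_40h, and for TKO_96h vs TKO_40h all 24 filled circles are above 0.

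**Figure D3:**
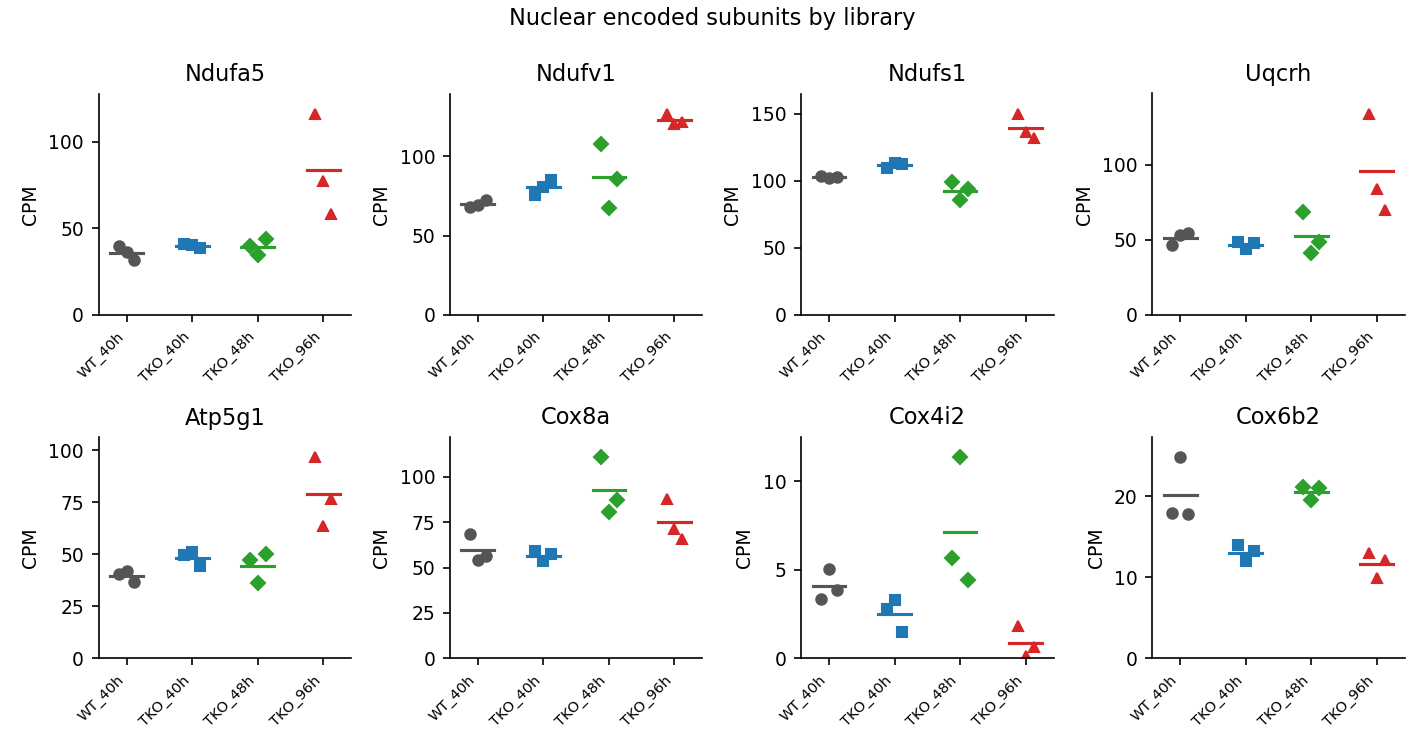
CPM of 8 nuclear subunits in each library, with 1 point per library, 3 per group, and lines for group means. Ndufa5, Ndufv1, Ndufs1, Uqcrh and Atp5g1 are highest in TKO_96h, Cox8a in TKO_48h, and Cox4i2 is lowest in TKO_96h with 1.81, 0.14 and 0.66 CPM.

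Promoters are shown for 3 nuclear genes whose calls did not depend on any 1 library, Ndufa5 and Uqcrh (TKO_96h against TKO_40h) and Cox8a (TKO_48h against TKO_40h). Each line gives the 150 bases before the transcription start in RefSeq on GRCm38.p6, 5′ to 3′ on the gene's strand (minus for all 3), at chr6:24527691-24527840, chr4:116075071-116075220 and chr19:7217617-7217766. Of 2 starts listed for Ndufa5, the one nearer to the GENCODE gene start was taken. Capitals mark matches to letters bound by factors that are known to regulate many respiratory genes: GCGCA, any base and GCGC in a row for NRF1, CCGGAAG for ETS factors such as GABPA, and AANATGGC for YY1, on either strand.
Ndufa5: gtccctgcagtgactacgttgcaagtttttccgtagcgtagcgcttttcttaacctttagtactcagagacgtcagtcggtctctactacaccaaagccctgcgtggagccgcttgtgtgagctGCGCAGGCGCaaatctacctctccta
Uqcrh: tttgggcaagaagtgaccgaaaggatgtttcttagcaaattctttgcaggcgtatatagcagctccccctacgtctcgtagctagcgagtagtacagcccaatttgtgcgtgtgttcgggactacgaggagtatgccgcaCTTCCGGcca
Cox8a: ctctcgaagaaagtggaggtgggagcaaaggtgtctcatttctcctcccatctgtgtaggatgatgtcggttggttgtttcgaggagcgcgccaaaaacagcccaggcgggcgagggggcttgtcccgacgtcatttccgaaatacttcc
In these windows Ndufa5 has an NRF1 match that begins 26 bases before the start and Uqcrh an ETS match that begins 10 bases before it. Cox8a has no whole match in the printed bases, and an ETS match begins 5 bases before its start and runs across it. In windows from 250 bases before to 50 after the start, matched by symbol for 66 of the 84 nuclear members, 17 genes (25.8%) held the NRF1 letters, 16 (24.2%) the ETS letters and 16 (24.2%) the YY1 letters. Among 11719 tested protein-coding genes in the same table the shares were 10.2%, 17.8% and 9.1%, and among all 27025 genes listed they were 5.2%, 9.9% and 7%. Matches to different motifs overlapped in 0 members. Of the 16 nuclear genes that rose in TKO_96h against TKO_40h 13 were matched, and 3, 1 and 3 of them held the NRF1, ETS and YY1 letters. A match of letters is a description and does not show that a factor binds there.

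The comparison of TKO_96h with TKO_48h, which shares its libraries with the other comparisons within TKO, held the largest number of calls. Of 93 members 27 rose and 2 fell, where 8.82% of all genes were called higher and 10.7% lower. The mitochondrial genome gave 11 of 13 genes higher with a median log2 fold change of 0.72, and the nucleus 16 of 80 (20%) higher and 2 lower with a median of 0.30. Other nuclear protein-coding genes with an effective length under 700 bases had 13.7% higher and a median of 0.19. By complex, 13 of 42 genes rose in complex I, 0 of 4 in complex II, 3 of 9 in complex III, 5 of 19 in complex IV (2 fell) and 6 of 19 in complex V.

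mt-Cytb had the smallest adjusted p of all members, with 1000, 811 and 1059 CPM in TKO_48h and 2354, 1918 and 1695 CPM in TKO_96h. All TKO_96h libraries lay above all TKO_48h libraries (log2 fold change 1.06 ± 0.12, adjusted p = 6e-06). mt-Nd6 was at 211.5, 261.6 and 249.3 against 482, 472 and 411 CPM (0.92 ± 0.12, adjusted p = 1.8e-05), and mt-Nd5 at 1053, 1250 and 1222 against 1927, 2043 and 2076 CPM (0.78 ± 0.10, adjusted p = 1.7e-05). Neither pair of groups overlapped. mt-Nd4, mt-Nd2, mt-Nd1, mt-Atp8, mt-Atp6 and mt-Nd4l rose by 0.81, 0.72, 0.63, 0.80, 0.64 and 0.45 (adjusted p from 8.6e-05 to 0.0063) and kept their calls without any 1 library, though that of mt-Nd4l ended with the length offset (adjusted p = 0.065). mt-Nd3 and mt-Co3 rose by 0.99 ± 0.26 and 0.59 ± 0.16 (adjusted p = 0.01 and 0.016), calls that ended without TKO_96h replicate 1. mt-Co1 and mt-Co2 did not pass (0.12 and 0.34, adjusted p = 0.46 and 0.23), but with the counts of its copy added mt-Co2 did (0.51 ± 0.16, adjusted p = 0.026).

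Among nuclear genes Ndufs1 (chr1:63143596-63176833, minus strand), the largest subunit of complex I, was at 99.5, 85.4 and 93.6 CPM in TKO_48h and 150, 136 and 132 CPM in TKO_96h. The groups did not overlap (0.59 ± 0.10, adjusted p = 0.00041). Ndufa5 (1.09 ± 0.19), Atp5g1 (0.83 ± 0.16), Uqcrh (0.86 ± 0.20) and Ndufv1 (0.51 ± 0.13) rose as well (adjusted p = 0.00042, 0.00099, 0.0046 and 0.011), and none of these 5 calls ended without any 1 library. With the length offset the call of Ndufv1 ended (adjusted p = 0.11). The other 11 nuclear genes that rose, Uqcr11, Atp5j, Cox7c, Ndufb5, Ndufa11, Cox7b, Cox6c, Cox5b, Atp5mpl, Atp5o and Ndufs4, had log2 fold changes from 0.45 to 0.91, and the call of each ended without TKO_96h replicate 1. For Atp5l, whose processed pseudogenes hold part of its counts, the difference just missed the threshold (0.56, adjusted p = 0.052) and passed with the copies added (0.75 ± 0.17, adjusted p = 0.0037) and with DESeq2.

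Isoforms of complex IV fell in the same comparison. Cox4i2 (chr2:152754173-152765037, plus strand), the form of Cox4 that is known to be induced in low oxygen and in lung, was at 5.67, 11.4 and 4.4 CPM in TKO_48h and 1.81, 0.14 and 0.66 CPM in TKO_96h. All TKO_96h libraries lay below, with a log2 fold change of -3.04 ± 0.68 (adjusted p = 0.0034) that was kept without any 1 library and with the length offset (adjusted p = 0.012). Cox4i2 is a rare mRNA, with 321 counts over all libraries, so its fold change is imprecise. In TPM it averaged 7.03 in TKO_48h and 0.943 in TKO_96h, while Cox4i1 averaged 218 and 299. Cox6b2, expressed mainly in testis in the adult, was at 21.1, 19.5 and 21 CPM in TKO_48h and 13, 9.94 and 12.1 CPM in TKO_96h (-0.81 ± 0.22, adjusted p = 0.011), and its call ended without TKO_96h replicate 2 and with the length offset. Per length, Cox6b2 averaged 35.6 TPM in WT_40h, 23 in TKO_40h, 30.6 in TKO_48h and 20.9 in TKO_96h, and its partner isoform Cox6b1 averaged 37.1, 41.6, 36.5 and 55.3 TPM.

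The 17 listed isoform genes were chosen as forms that share a role. Of the 14 tested, 0 were called in TKO_40h against WT_40h, 1 (Cox8a) in TKO_48h against TKO_40h, and 3 (Atp5g1, Cox7b and Cox7a2) in TKO_96h against TKO_40h. These are shares of 7.1% and 21.4% higher, where 2.57% and 4.94% of all genes were. In TKO_96h against TKO_48h 2 rose (Cox7b and Atp5g1) and 2 fell (Cox4i2 and Cox6b2). That is 14.3% each, where 8.82% and 10.7% of all genes were called higher and lower. The c subunit genes Atp5g2 and Atp5g3 had -0.42 ± 0.31 and 0.37 ± 0.15 between TKO_96h and TKO_48h (adjusted p = 0.39 and 0.096), beside 0.83 for Atp5g1. That these 3 genes differed from each other was not tested, and the sign of Atp5g2 between TKO_96h and TKO_40h (-0.30) turned when its copies were added (0.13). Cox7a1, the heart and muscle isoform, was at 32.9 TPM and Cox7a2 at 37.7 TPM on average over all libraries. Cox7a2l, Cox6a1, Cox6b1 and the rare Cox7b2 were not called in any comparison. Markers of muscle and heart, tissues that use such isoforms, summed to 16.9 to 20.7 CPM in TKO_96h and to 24.1 to 38.8 CPM in the other groups (6 genes, 5 tested). Trophoblast markers summed to 33.9 to 38 CPM in TKO_96h and to 46 to 115 CPM in the other groups (8 genes, 7 tested), endoderm markers to 11.6 to 23.2 and 21.5 to 38 CPM, and mesoderm markers to 7.91 to 15.2 and 13.5 to 38.4 CPM. Not all marker sets were lower: neural markers summed to 203 to 238 CPM in TKO_96h and to 201 to 236 CPM in the other groups. Markers of endothelium and blood summed to 75.2 to 80 and 62.6 to 87.3 CPM. Their part in the results was not tested.

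**Figure D4:**
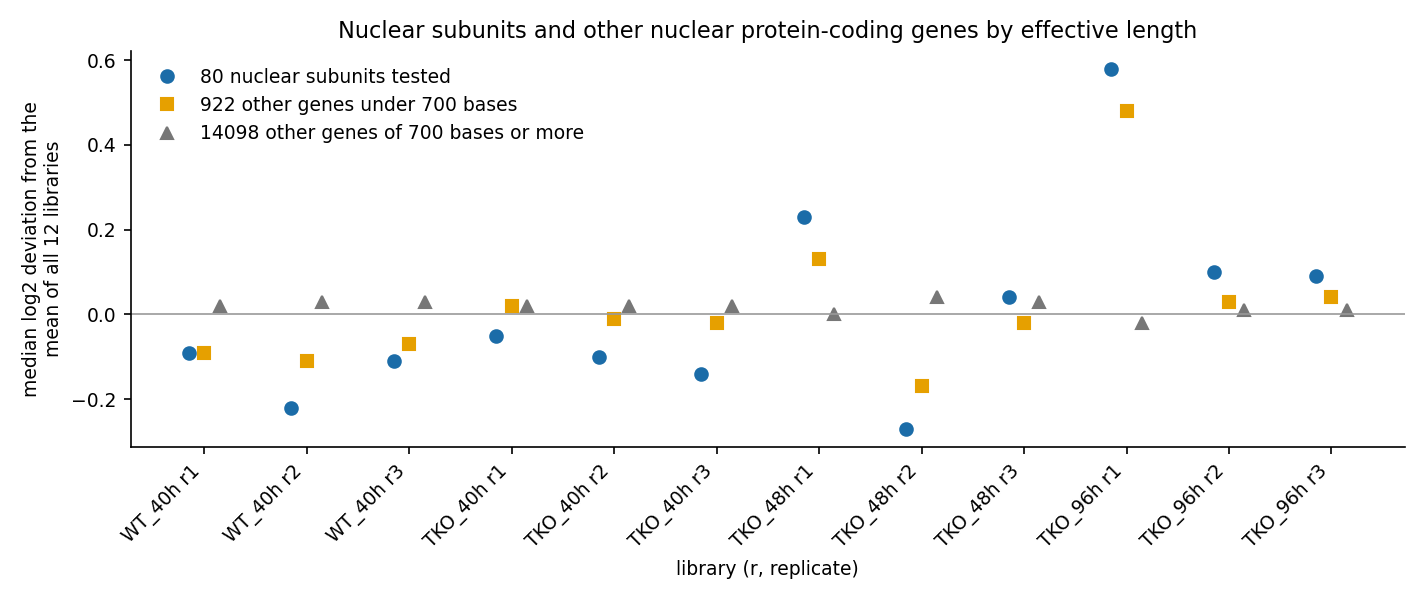
Median log2 deviation of each library from the mean of all 12 libraries, for the tested nuclear subunits, for other nuclear protein-coding genes with an effective length under 700 bases, and for longer ones. TKO_96h replicate 1 stands at 0.58 for the subunits and 0.48 for the other short genes, with -0.02 for long genes.

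TKO_96h replicate 1 bears on many of the calls above. The 84 nuclear subunits summed to 8934 CPM in this library against 6635 and 6587 CPM in replicates 2 and 3, and to 5669 to 5972 CPM in TKO_40h. Replicates 2 and 3 thus still lay above all TKO_40h libraries. Most nuclear subunits are short mRNAs: 70% of the 80 tested have a mean effective length under 700 bases, and their median is 534 bases against 2078 for other nuclear protein-coding genes. In this library the nuclear subunits deviated by a median of 0.58 (log2) from the mean of all libraries and the 922 other genes under 700 bases by 0.48, while the 14098 longer genes deviated by -0.02. TKO_48h replicate 2 showed the opposite sign, with -0.27 for the subunits and -0.17 for other short genes. Lars2 and Ccnb1ip1 together took 3.06% of counts in TKO_96h replicate 1 and 1.3% to 1.93% in the other 11 libraries, and their part in the results was not tested. The median length trimmed to reach effective length was 176.2 bases in TKO_96h replicate 1, 175.4 and 180.3 in replicates 2 and 3, and 179.9 to 185.8 in the other groups.

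Between TKO_96h and TKO_40h the other short genes had a median difference of 0.25 (log2) with 8.9% called higher, and the longer ones one of -0.01 with 4.8% called higher, beside 0.39 and 20% for the nuclear subunits. Without TKO_96h replicate 1, the nuclear subunits had 6 higher and 1 lower (Cox4i2) of 80 with a median of 0.21, and the mitochondrial genes 4 of 13 higher with a median of 0.29, where 3.03% of all genes were called higher. The total was then 11 members in place of 24, and 1351 genes in all in place of 1965. It was 14 members without TKO_40h replicate 1 or replicate 2 and 12 without TKO_40h replicate 3. In all, 1361, 1321 and 1210 genes were called in these 3 fits. With the length offset 8 members were called, and 827 genes in all. The medians under the offset were 0.48 for the mitochondrial and 0.38 for the nuclear genes, beside 0.50 and 0.39 without it. Calls kept without any 1 of the 6 libraries were 7: Ndufa5, Uqcrh, mt-Cytb, Ndufv1, Atp5g1, mt-Nd6 and mt-Nd5.

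Between TKO_96h and TKO_48h, leaving out TKO_96h replicate 1 gave 14 members higher and 4 lower, with Ndufa6 and Ndufv3 joining Cox4i2 and Cox6b2 among the lower. The median of the nuclear genes was then 0.10 and that of the mitochondrial genes 0.49, with 9 of 13 mitochondrial genes and 5 of 80 nuclear genes higher. Of all genes 5.97% were called higher in that fit, so the share of nuclear subunits was near that of all genes. With the length offset 12 members were higher and 1 lower, where 4.28% of all genes were called higher. In this comparison 15 of the 29 calls were kept without any 1 library, 9 of them mitochondrial.

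The balance between the genomes was lowest in TKO_48h. Summed counts of the 13 mitochondrial genes were 2.56, 2.57 and 2.40 times those of the 84 nuclear genes in WT_40h, 2.22, 2.07 and 2.37 times in TKO_40h, 1.62, 1.97 and 1.89 times in TKO_48h, and 2.18, 2.36 and 2.16 times in TKO_96h. All TKO_48h libraries lay below all others, all WT_40h libraries lay above all others, and TKO_40h and TKO_96h overlapped. With the copies added, TKO_48h was still lowest, but TKO_40h replicate 3 (log2 ratio 1.312) passed WT_40h replicate 3 (1.306). With deposited TPM, TKO_48h was lowest too and TKO_96h replicate 2 (1.225) passed WT_40h replicate 3 (1.220). From medians of log2 CPM, TKO_48h replicates 2 and 3 (4.141 and 3.982) lay above TKO_40h replicates 2 and 3 (3.864 and 3.891), so the separation of TKO_48h held for sums and not for medians. As log2 ratios the differences of group means were -0.18 for TKO_40h against WT_40h, -0.28 for TKO_48h against TKO_40h, 0.01 for TKO_96h against TKO_40h and 0.29 for TKO_96h against TKO_48h. These ratios are a description over chosen genes and carry no test.

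The sums of each genome overlapped between TKO_40h and TKO_48h. The mitochondrial sum was 14772, 14004 and 13713 CPM in WT_40h, 13256, 11964 and 13409 in TKO_40h, 11686, 10219 and 11991 in TKO_48h and 19500, 15667 and 14230 in TKO_96h. The nuclear sum was 5773, 5444 and 5705 CPM in WT_40h, 5972, 5787 and 5669 in TKO_40h and 7206, 5181 and 6331 in TKO_48h, whose replicates spanned both other groups. The lowest ratio, 1.62 in TKO_48h replicate 1, came with the highest nuclear sum of its group. By complex, the nuclear sums of complex II were 331, 312 and 293 CPM in TKO_40h and 409, 390 and 364 in TKO_96h, and those of complex III 469, 457 and 461 against 836, 571 and 540. The mitochondrial sums of complex I were 5003, 4609 and 5161 CPM in TKO_40h, 3591, 3737 and 4074 in TKO_48h and 7049, 6148 and 5786 in TKO_96h, without overlap among the 3 groups. The mitochondrial sums of complex IV overlapped among the same groups (5016 to 5583, 4708 to 5836 and 5232 to 7678 CPM), and mt-Co1 made up most of each.

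**Figure D5:**
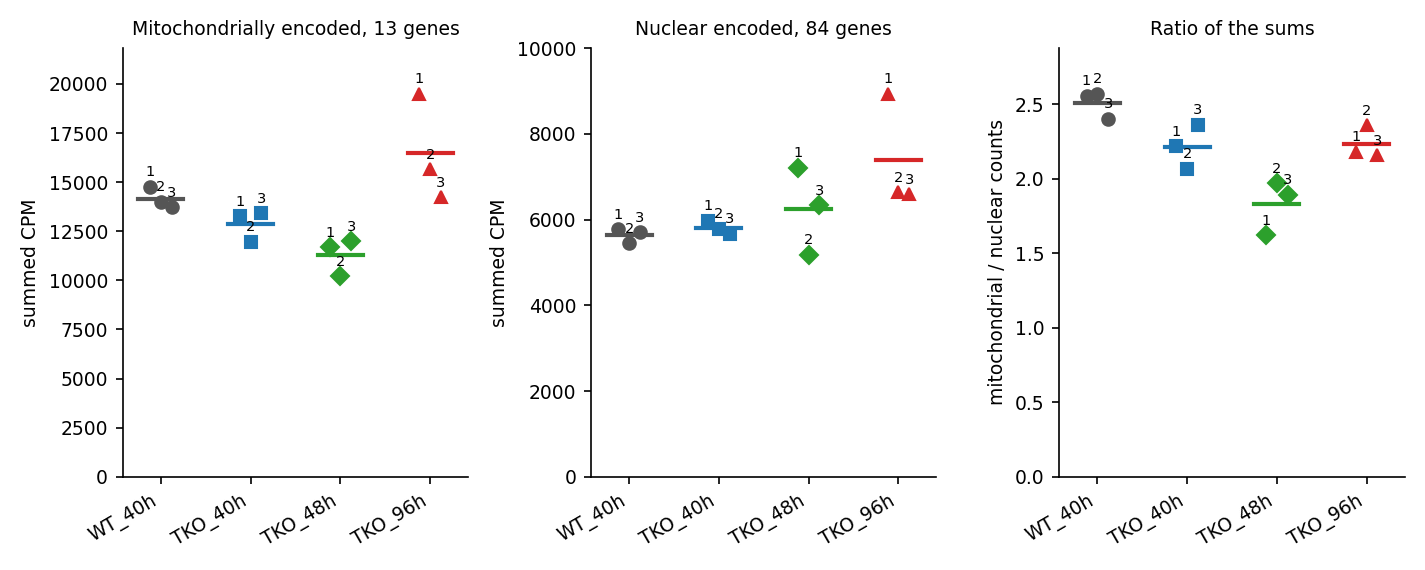
Summed CPM of the mitochondrially and of the nuclear encoded subunits and the ratio of their counts, with 1 point per library, labelled by replicate number, and lines for group means; all axes start at 0. The ratio is 1.62 to 1.97 in TKO_48h and 2.07 to 2.57 in the other groups.

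Other genes of the pathway were taken from fixed lists. Assembly factors, which put subunits and cofactors together, had these counts: of 17 for complex I, 0, 0, 1 and 2 rose in the 4 comparisons in the order given above, and of 36 for complexes II to V, 0, 0, 2 and 5 rose, with no member of either list lower. The shares higher in TKO_96h were 5.9% and 5.6% against TKO_40h (4.94% of all genes) and 11.8% and 13.9% against TKO_48h (8.82%). The most abundant ones, Acad9 for complex I and Cox17 for complex IV, had 0.13 and 0.25 in TKO_40h against WT_40h and -0.20 and 0.04 in TKO_48h against TKO_40h (adjusted p from 0.479 to 0.942). The copper chaperone gene Cox17 was higher in TKO_96h than in TKO_40h (0.71 ± 0.17, adjusted p = 0.0094) and than in TKO_48h (0.67 ± 0.17, adjusted p = 0.0094), and Foxred1 and Bcs1l, factors for complexes I and III, were higher than in TKO_40h (0.81 and 1.44, adjusted p = 0.0135 and 0.0238). Ndufaf4 and Dmac1 of complex I and Cox11 and Fastkd3 were higher in TKO_96h than in TKO_48h (0.77, 0.81, 0.89 and 0.85, adjusted p = 0.0089, 0.025, 0.0063 and 0.019).

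The list of 14 electron carrier genes holds Cyc1, Cycs, Ndufab1 and otherwise coenzyme Q genes. Of the 14, the coenzyme Q gene Coq9 rose in TKO_48h against TKO_40h (0.72 ± 0.18, adjusted p = 0.022). In TKO_96h against TKO_40h and in TKO_40h against WT_40h 0 were called. Cyc1, the most abundant of them, had 0.20 and -0.07 there (adjusted p = 0.497 and 0.903). Cycs, cytochrome c, was at 70.9, 49.6 and 54.8 CPM in TKO_48h and 125, 98.3 and 87.6 CPM in TKO_96h (0.83 ± 0.16, adjusted p = 0.00088), without overlap. The share of this list called higher was 7.1% in TKO_48h against TKO_40h (2.57% of all genes). It was also 7.1% in TKO_96h against TKO_48h (8.82% of all genes). Of 30 genes for transcription, replication and RNA handling of mitochondrial DNA, 0 were called in TKO_40h against WT_40h and in TKO_48h against TKO_40h, 2 rose in TKO_96h against TKO_40h (Mgme1 by 0.45 and Fastkd1 by 0.58, adjusted p = 0.025 and 0.036), and 6 rose and 1 fell against TKO_48h. The 6 included the RNA-binding genes Tbrg4 and Fastkd2 (0.61 and 1.02, adjusted p = 0.0012 and 0.0027) and the processing nuclease gene Elac2 (0.49, adjusted p = 0.01), and the gene that fell was the polymerase Polg (-0.29, adjusted p = 0.047), named after its value was seen because it was alone. Lrpprc, the most abundant of the list, had -0.06 in TKO_40h against WT_40h and -0.15 in TKO_48h against TKO_40h (adjusted p = 0.853 and 0.467). Fastkd2 and its relatives act on mitochondrial RNA after transcription. Of these 30 genes 6.7% were higher in TKO_96h than in TKO_40h (4.94% of all genes). Against TKO_48h 20% were higher and 3.3% lower (8.82% and 10.7% of all genes).

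Of 14 tested regulators of mitochondrial biogenesis, Mycn fell in TKO_40h against WT_40h (-0.49 ± 0.12, adjusted p = 0.026), and 0 were called in TKO_48h against TKO_40h, where the most abundant of them, Pprc1, had -0.14 ± 0.12 (adjusted p = 0.599). In TKO_96h against TKO_40h 4 rose, among them Esrrg, Esrrb and Gabpa by 4.24, 0.45 and 0.40 (adjusted p = 0.00785, 0.0139 and 0.0191). Esrrg was rare, with a mean of 0.461 CPM in TKO_40h and 9.15 CPM in TKO_96h. Nrf1, Myc and Gabpa rose against TKO_48h by 0.45, 0.75 and 0.31 (adjusted p = 0.0063, 0.018 and 0.047). The shares of regulators higher in TKO_96h were 28.6% against TKO_40h and 21.4% against TKO_48h (4.94% and 8.82% of all genes). In TKO_40h against WT_40h 7.1% were lower (1.48% of all genes). Nrf1 and Gabpa encode factors for the motifs searched above, and their levels do not show binding.

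Of 25 genes of the tricarboxylic acid cycle and pyruvate entry, which feed the chain with electrons, Ogdh alone was called in TKO_40h against WT_40h (0.48, adjusted p = 0.023) and Idh3b alone in TKO_48h against TKO_40h (-0.59, adjusted p = 0.011). In TKO_96h against TKO_40h 4 rose, among them Suclg1 and Dlat (both 0.53, adjusted p = 0.0106 and 0.0133), and 1 fell, the kinase gene Pdk1, whose product keeps pyruvate out of mitochondria (-0.82 ± 0.10, adjusted p = 1.3e-05). Against TKO_48h 4 rose and 4 fell, led by Pdk1 (-0.98 ± 0.10, adjusted p = 8.8e-07), Idh3b (0.85, adjusted p = 0.000105) and Idh2 (-0.68, adjusted p = 0.0014). These are 16% each, where 8.82% and 10.7% of all genes were called higher and lower. In TKO_96h against TKO_40h the shares were 16% higher and 4% lower (4.94% and 7.2% of all genes). The calls of Ogdh and Idh3b in the earlier comparisons were 4% of the list each (1.62% of all genes higher and 2.92% lower there).

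Of 11 listed genes that are known to respond to low oxygen, 0 rose and 2 fell in TKO_40h against WT_40h (Egln1 by 0.85 and Bnip3l by 0.50 on the log2 scale). In TKO_48h against TKO_40h 5 rose (among them Egln1 and Bnip3, by 1.24 and 0.74). In TKO_96h 7 fell against TKO_40h and all 11 fell against TKO_48h. Hypoxia genes were already known to differ between these groups when the list was made, so the counts are a description. The share lower was 18.2% in TKO_40h against WT_40h (1.48% of all genes). In TKO_96h it was 63.6% against TKO_40h and 100% against TKO_48h (7.2% and 10.7% of all genes). In TKO_48h against TKO_40h 45.5% were higher (2.57% of all genes). Bnip3, a receptor for the removal of mitochondria, was at 164, 172 and 215 CPM in TKO_40h and 11.3, 14.8 and 8.84 CPM in TKO_96h (-3.98 ± 0.16, adjusted p = 2.8e-12). Ldha, which turns pyruvate into lactate, was at 697, 653 and 719 against 147, 157 and 170 CPM (-2.12 ± 0.12, adjusted p = 1.8e-10). Slc2a1, a glucose transporter, had -2.70 ± 0.12 (adjusted p = 4.8e-12). Cox4i2, a member of the respiratory chain, is on this list, and Cox8a, the subunit that rose in TKO_48h, is not.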

How the data were processed

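Total RNA of 12 PGCLC libraries (4 groups of 3) was sequenced with a stranded low-input kit, per the labels. The submitters' processing notes name Trim Galore 0.6.2, kallisto and the build GRCm38 (mm10). Which transcript set and strand setting were used is not stated in those notes. Per the file headers, the authors deposited estimated counts and TPM for each transcript.

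Transcripts were matched to GENCODE M21 and summed per gene; unmatched transcripts held 2.676% to 4.318% of counts. Estimated counts were rounded, filtered (edgeR's filterByExpr, minimum count 10, minimum total 15) and TMM-normalised, and 16178 genes were fitted over all 12 libraries with edgeR 4.0.16 (R 4.3.3). Calls are adjusted p below 0.05 (Benjamini-Hochberg, all genes tested); the SE is the log2 fold change divided by the root of F. Levels between genes are compared in TPM as deposited. The fit was tested on simulated data. DESeq2 1.42.0, other scalings, no filter, a length offset, copies added, a replicate block and omission of each library were alternatives. Omitting TKO_48h replicate 1 and TKO_96h replicate 1 together was added after the data were seen. Named in the text are all mitochondrial genes, called members (up to 12 per comparison with full values), the 2 most abundant nuclear genes per complex, complex II, isoforms, and up to 3 called genes per other list. Members and lists were chosen with earlier results of these data known. One member that the naming rule covers is counted but not reported here by name.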

Additional observations from a re-analysis of the deposited data

How the results depend on the processing

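With an offset for effective length, the members called numbered 1 for TKO_48h against TKO_40h, 8 for TKO_96h against TKO_40h and 13 for TKO_96h against TKO_48h. Without a filter on low counts TKO_96h against TKO_40h had 44, and without both TKO_48h replicate 1 and TKO_96h replicate 1 (added after the data were seen) TKO_40h against WT_40h had 1; the cause was not tested. Leaving out each library in turn gave 0 to 0, 1 to 8, 11 to 34 and 18 to 38 members for the 4 comparisons in the order of the report; without TKO_96h replicate 1 the last had 18. DESeq2 called 0, 6, 29 and 32. The replicate block gave 0, 5, 31 and 34 and ended the call of Ndufs1 in TKO_96h against TKO_40h (adjusted p = 0.052); same-numbered libraries deviated together with r from -0.0608 to 0.0525 over 18 pairs, so the numbers were not taken as pairs. Calls over all genes changed as well. The main fit gave 501, 888, 1965 and 3157, and DESeq2 785, 1180, 2302 and 3487. The replicate block gave 520, 903, 2022 and 3175, and the length offset 78, 203, 827 and 1638. Without the filter TKO_96h against TKO_40h had 2293. Without TKO_48h and TKO_96h replicate 1 TKO_40h against WT_40h had 898. Leaving out each library gave 182 to 667, 324 to 1106, 1210 to 2271 and 2347 to 2991 genes. The log2 ratio of the genomes taken from medians of log2 CPM was -0.29 for TKO_40h against WT_40h and -0.15 for TKO_48h against TKO_40h. With each library left out the ratio ranged from -0.2288 to -0.1318, from -0.3373 to -0.1961, from -0.03718 to 0.05984 and from 0.2083 to 0.3495. No call of a named member reversed its direction in the alternatives run, while the sign of Atp5g2, not called, turned when copies were added. With 6570180 to 9114128 counts per library, rare subunits such as Cox4i2 and Cox7b2 were measured imprecisely.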

Other observations

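Subunits and related genes that the symbol rule leaves out did not all move alike. Ndufa4l2, a relative of Ndufa4 known to be induced in low oxygen, was at 29.4, 31.8 and 25 CPM in WT_40h, 16.5, 13.6 and 17.1 in TKO_40h, 41.6, 24.1 and 45.9 in TKO_48h, and 0, 0 and 1.71 CPM in TKO_96h. All TKO_96h libraries lay below all others, with a fitted log2 fold change of -5.90 ± 0.53 against TKO_48h (edgeR, adjusted p = 2.13e-07) that rests on few counts. Usmg5, a small protein of the ATP synthase, was at 18.4, 14.4 and 13.9 CPM in TKO_48h and 51.2, 33.6 and 21.9 CPM in TKO_96h (1.19 ± 0.26, adjusted p = 0.0026), without overlap and highest in TKO_96h replicate 1. Cyc1 of complex III, Ndufab1 of complex I and the synthase inhibitor Atpif1 had 0.09, 0.09 and -0.03 in the same comparison and did not pass (adjusted p from 0.748 to 0.902).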
